A study of Homo sapiens with 4 samples.

Results

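The expression of 10 genes that make, phosphorylate or use NAD was examined in B-CPAP cells after knockdown of LDHA. The genes were taken by name: NAMPT, NMNAT1 and NMNAT3 of NAD synthesis, NADK, NADK2 and NNT of the NADP pool, the sirtuins SIRT1, SIRT3 and SIRT6, and PARP1. Each of the 10 stood on 1 row of the 59108 rows of the table, and all 10 were among the 13291 tested rows, those that reached 0.5 FPKM in 2 or more libraries. B-CPAP is a line from papillary thyroid carcinoma. Control cells carried a hairpin against GFP (shGFP, 2 libraries) and knockdown cells a hairpin against LDHA (shLDHA, 2 libraries), and the study's methods describe lentiviral delivery of its LDHA hairpins with puromycin selection. Whether the 2 libraries of a group were grown apart, and whether both shLDHA libraries carry 1 hairpin, is not said in the labels, and the p-values therefore rest on a spread over 4 libraries that may be technical.

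NAD carries electrons between enzymes, and lactate dehydrogenase returns NADH to NAD when it turns pyruvate into lactate. Most human cells rebuild NAD from nicotinamide: NAMPT joins nicotinamide to a phosphoribosyl group, in the step that limits the rate of this salvage, and an NMNAT enzyme adds the adenylyl group. Sirtuins and PARP enzymes break NAD down as they remove acyl groups from proteins or attach ADP-ribose to them, and so return nicotinamide to the salvage route.

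LDHA itself stood at 1186 and 1183 FPKM in the shGFP libraries and at 176 and 168 FPKM in the shLDHA libraries, values on the side its label gives. FPKM are fragments per kilobase of gene, scaled to the depth of the library, so levels can be set side by side between genes. From the steps between low values, the depth was estimated at 18900000 to 25800000 fragments per library. The deposited values of all tested genes had a median log2 difference of -0.33 between shLDHA and shGFP, and scaling by a trimmed mean of M values (TMM) removed it. Log2 fold changes are therefore given after TMM scaling, relative to that shift, unless another setting is named. FPKM of single libraries are as deposited, so they can show a different size of change than the log2 fold change beside them. Transcript length moved with the change: over 11920 genes with a length, Spearman's rho between length and log2 fold change was -0.41, a description over genes that are not independent. shLDHA library 2 held 3.53% of its FPKM on rows without a gene name, against 0.361% to 0.44% in the other libraries. Of the thyroid follicular markers, PAX8 (65.7 to 99.4 FPKM), FOXE1 and HHEX were present, while NKX2-1 and TSHR were listed at 0 and TG and SLC5A5 did not pass 0.12 FPKM in any library. The keratin genes KRT7, KRT8 and KRT18 were present, whereas KRT19, EPCAM and CDH1 did not pass 0.20 FPKM. All 3 endothelial markers, 2 of 3 leukocyte markers and 2 of 3 fibroblast markers stayed under 0.5 FPKM, the others being CD14 (0.50 and 0.45 FPKM in shGFP, 1.91 and 0.96 FPKM in shLDHA) and COL1A1 at 0.78 to 3.12 FPKM. In RNA from a whole culture, fewer cells that express a gene and less of its RNA per cell cannot be told apart.

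Promoters are shown for 4 genes. SIRT3 and SIRT6 passed the test in the direction of higher after TMM scaling. NAMPT and PARP1 were lower in both shLDHA libraries and passed as deposited. The same held for NNT (limma adjusted p = 0.049 as deposited), whose promoter is not shown. The sequences are the 250 bases before the RefSeq start on GRCh38.p14, with the GC box (GGGCGG on either strand, a letter pattern bound by SP family factors) in capitals.
SIRT3, chr11:236932-237181, minus strand: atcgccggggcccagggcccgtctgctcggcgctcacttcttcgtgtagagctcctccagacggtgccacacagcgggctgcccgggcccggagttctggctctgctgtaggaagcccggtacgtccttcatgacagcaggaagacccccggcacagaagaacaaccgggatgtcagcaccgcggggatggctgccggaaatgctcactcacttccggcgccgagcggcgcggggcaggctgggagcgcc
SIRT6, chr19:4182564-4182813, minus strand: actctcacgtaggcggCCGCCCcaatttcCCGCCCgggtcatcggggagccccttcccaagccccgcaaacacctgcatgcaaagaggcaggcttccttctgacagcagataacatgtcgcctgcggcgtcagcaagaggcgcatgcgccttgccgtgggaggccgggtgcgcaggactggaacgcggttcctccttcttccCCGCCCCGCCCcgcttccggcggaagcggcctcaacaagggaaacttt
NAMPT, chr7:106284984-106285233, minus strand: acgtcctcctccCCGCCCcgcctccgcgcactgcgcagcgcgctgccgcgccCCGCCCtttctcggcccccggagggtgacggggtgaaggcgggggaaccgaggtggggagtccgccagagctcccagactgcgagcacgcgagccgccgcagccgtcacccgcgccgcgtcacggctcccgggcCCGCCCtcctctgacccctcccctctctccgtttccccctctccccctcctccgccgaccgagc
PARP1, chr1:226408094-226408343, minus strand: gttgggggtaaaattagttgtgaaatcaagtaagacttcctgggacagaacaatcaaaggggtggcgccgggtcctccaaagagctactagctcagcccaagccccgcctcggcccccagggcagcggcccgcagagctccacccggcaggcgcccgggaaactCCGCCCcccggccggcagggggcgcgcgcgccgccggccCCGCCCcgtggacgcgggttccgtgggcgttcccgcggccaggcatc
All 10 genes matched a RefSeq promoter. The GC box was found in 8 of the 10 windows, all but NADK2 and SIRT3, against 42.3% of 27305 RefSeq windows of the same length, which include genes of noncoding RNAs. SIRT6 held 4 matches, NAMPT 3, PARP1 2 and SIRT3 0, so genes on either side of the change had windows with the pattern. The E-box CACGTG, a letter pattern bound by MYC and by the clock factors, was found in NADK2 and SIRT1, against 6.49% of all windows, and CCAAT (either strand) in NADK2, NMNAT1 and SIRT6, against 33.0%.

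In the control cells the order of levels was led by PARP1 at 98.6 ± 3.58 FPKM (SD, n = 2, as deposited), NADK at 46.8 ± 2.76 FPKM, SIRT6 at 25.4 ± 1.78 FPKM and SIRT3 at 12.1 ± 1.27 FPKM. NNT at 7.11 ± 1.79 FPKM and NAMPT at 4.31 ± 0.177 FPKM followed. NADK2 at 1.96 ± 0.156 FPKM, SIRT1 at 1.94 FPKM in both libraries, NMNAT1 at 1.35 ± 0.127 FPKM and NMNAT3 at 1.14 ± 0.255 FPKM closed the order. The control values of neighbours did not overlap, except for NADK2 with SIRT1 and NMNAT1 with NMNAT3. At these levels NMNAT3 rested on roughly 37 to 78 fragments per library and NMNAT1 on 75 to 131, a counting error of up to 16.5% and 11.6%, while PARP1 rested on 3932 or more.

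**Figure D1:**
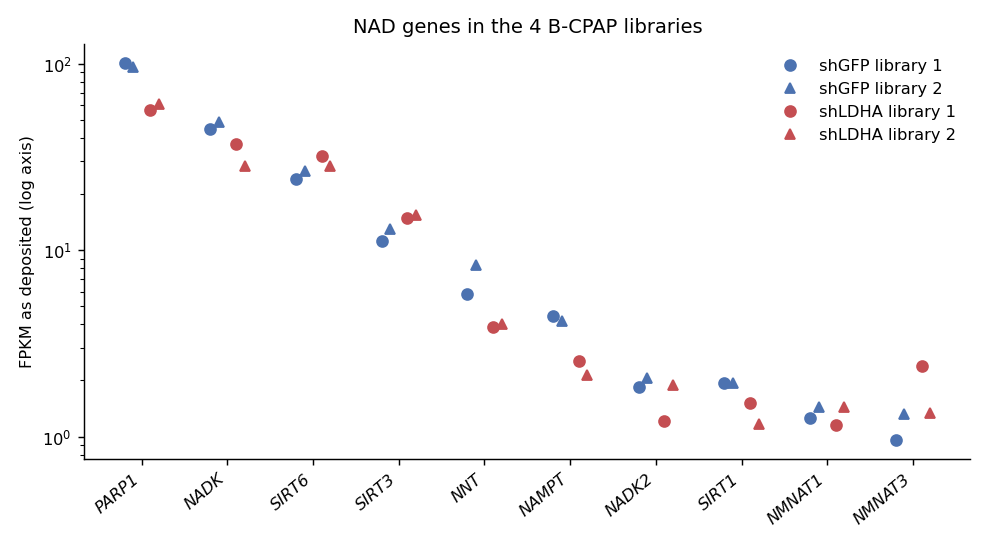
FPKM as deposited (log axis) of the 10 NAD genes in each library, ordered by the control mean; blue points are shGFP, red points shLDHA, circles library 1 and triangles library 2. PARP1, NADK, NNT, NAMPT and SIRT1 lie lower in both shLDHA libraries, SIRT6, SIRT3 and NMNAT3 higher, and NADK2 and NMNAT1 overlap.

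NAMPT, the enzyme that limits nicotinamide salvage, was lower in both shLDHA libraries, and its call depended on the scaling. The deposited values were 4.43 and 4.18 FPKM in shGFP and 2.54 and 2.15 FPKM in shLDHA. Both knockdown values lay well under both control values. After TMM scaling the log2 fold change of NAMPT was -0.52 (95% interval -0.91 to -0.13, limma adjusted p = 0.057), and as deposited it was -0.85 (limma adjusted p = 0.032). It was -0.37 (limma adjusted p = 0.12) with offsets that remove the trend with transcript length. NAMPT lies on the minus strand of chromosome 7 (GRCh37, 105888744 to 105926412), and its canonical transcript has 11 exons and 4360 bases. The processed copy NAMPTP1 was listed at 0.15 to 0.29 FPKM, so reads of the 2 rows may be shared.

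NMNAT1, the adenylyl transferase of the nucleus, and NMNAT3, that of the mitochondria, gave no call. NMNAT1 stood at 1.26 and 1.44 FPKM in shGFP and at 1.15 and 1.45 FPKM in shLDHA, so the groups overlapped (log2 fold change 0.26 after TMM scaling, 95% interval -0.48 to 1.01, and -0.06 as deposited). NMNAT3 stood at 0.96 and 1.32 FPKM in shGFP and at 2.38 and 1.34 FPKM in shLDHA. Only shLDHA library 1 was clearly apart, since library 2 lay only just above the higher control as deposited. The log2 fold change of NMNAT3 was 0.94 (standard error 0.32, limma adjusted p = 0.088). On GRCh37, NMNAT1 lies on chromosome 1 (10003486 to 10045559, plus strand) and NMNAT3 on chromosome 3 (139279022 to 139396859, minus strand). NMNAT3 shares 117838 bases, introns included, with the noncoding RNA gene COPB2-DT on the other strand. NMNAT1 shares 6547 bases with a noncoding RNA gene on the same strand. Neither of these noncoding genes had a row, and whether their reads enter the values was not tested.

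Of the genes of the NADP pool, NNT and NADK were lower in both shLDHA libraries without passing the test after TMM scaling, and NADK2 overlapped. NNT, the transhydrogenase of the inner mitochondrial membrane that makes NADPH from NADH, stood at 5.84 and 8.37 FPKM in shGFP and at 3.86 and 4.01 FPKM in shLDHA. Its control libraries differed from each other by more, relative to their mean, than those of any other of the 10 genes. The log2 fold change of NNT was -0.48 (95% interval -1.09 to 0.14, limma adjusted p = 0.18), -0.81 as deposited (limma adjusted p = 0.049) and -0.18 after length offsets (limma adjusted p = 0.58), and with 6421 bases its transcript is the longest of the 10. NADK, the NAD kinase of the cytosol, stood at 44.9 and 48.8 FPKM in shGFP and at 37.2 and 28.3 FPKM in shLDHA (log2 fold change -0.19, limma adjusted p = 0.23, and -0.53 as deposited, limma adjusted p = 0.072). NADK2, the mitochondrial NAD kinase, stood at 1.85 and 2.07 FPKM in shGFP and at 1.21 and 1.89 FPKM in shLDHA. The 2 knockdown libraries of NADK2 disagreed, and its log2 fold change of -0.02 (95% interval -0.92 to 0.87) leaves room for a change in either direction. NADK2 shares 4261 bases with SKP2 on the other strand, and the counting is not stated to have used strand. NNT-AS1, which shares 539 bases with NNT on the other strand, was listed at 0.71 to 1.45 FPKM.

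NADK lies on chromosome 1 (1682671 to 1711896, minus strand), NADK2 on chromosome 5 (36192691 to 36242381, minus strand) and NNT on chromosome 5 (43602794 to 43707507, plus strand), all on GRCh37.

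SIRT3 and SIRT6 rose relative to the other genes in LDHA knockdown cells, and SIRT1 did not pass the test. SIRT6, a nuclear deacylase of chromatin, stood at 24.1 and 26.7 FPKM in shGFP and at 31.8 and 28.2 FPKM in shLDHA. The groups did not overlap, by a small margin as deposited and a wider one after TMM scaling (22.6 ± 1.73 against 33.7 ± 0.54 FPKM, SD, n = 2). The log2 fold change of SIRT6 was 0.58 (standard error 0.09, 95% interval 0.33 to 0.83, limma adjusted p = 0.018). SIRT3, the main deacetylase of mitochondrial proteins, stood at 11.2 and 13.0 FPKM in shGFP and at 14.8 and 15.5 FPKM in shLDHA. Both knockdown values again lay above both controls. Its log2 fold change was 0.67 (standard error 0.15, 95% interval 0.27 to 1.07, limma adjusted p = 0.036).

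Neither call held in the values as deposited, where SIRT6 had a log2 fold change of 0.24 (limma adjusted p = 0.23) and SIRT3 one of 0.33 (limma adjusted p = 0.14). SIRT6, at 1600 bases the shortest transcript of the 10, had a log2 fold change of 0.27 after length offsets (limma adjusted p = 0.076), while SIRT3 kept 0.65 (limma adjusted p = 0.038). SIRT3 did not pass with upper quartile scaling (limma adjusted p = 0.052), without a filter on low values (0.071) or without a variance trend (0.063), and SIRT6 did. With an equal total per library (TPM scaling) neither passed (limma adjusted p = 0.37 for SIRT3 and 0.63 for SIRT6). Without shGFP library 1 the limma adjusted p was 0.16 for SIRT6 and 0.20 for SIRT3, without shGFP library 2 it was 0.11 and 0.12, and without shLDHA library 2 that of SIRT3 was 0.052. SIRT3 overlaps RIC8A by 84 bases on the other strand, and RIC8A was listed at 185.5 and 197.6 FPKM in shGFP and at 136.7 and 90.3 FPKM in shLDHA.

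SIRT1, a nuclear deacetylase, stood at 1.94 FPKM in both shGFP libraries and at 1.52 and 1.17 FPKM in shLDHA. Both knockdown values were lower, and the log2 fold change was -0.19 after TMM scaling (95% interval -0.72 to 0.34, limma adjusted p = 0.50) against -0.51 without it (limma adjusted p = 0.17). On GRCh37, SIRT1 lies on chromosome 10 (69644414 to 69678147, plus strand), SIRT3 on chromosome 11 (215030 to 236931, minus strand) and SIRT6 on chromosome 19 (4174106 to 4182563, minus strand).

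PARP1, the poly(ADP-ribose) polymerase that answers DNA breaks, had the highest level of the 10 genes in all 4 libraries and was lower in both shLDHA libraries. It stood at 101.1 and 96.0 FPKM in shGFP and at 56.4 and 61.1 FPKM in shLDHA. The controls lay close together, and the knockdown mean was 59.6% of the control mean as deposited. After TMM scaling PARP1 stood at 87.5 ± 2.61 and 66.5 ± 10.6 FPKM (SD, n = 2 each), with a log2 fold change of -0.40 (standard error 0.13, 95% interval -0.75 to -0.06, limma adjusted p = 0.079). It was -0.75 in the deposited values (limma adjusted p = 0.019), with upper quartile scaling -0.53 (limma adjusted p = 0.040) and after length offsets -0.29 (limma adjusted p = 0.17). Without shLDHA library 1 or 2 it was -0.24 or -0.56, so the size rested on which knockdown library was used. PARP1 lies on the minus strand of chromosome 1 (GRCh37, 226547911 to 226595855) and its canonical transcript has 23 exons.

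**Figure D2:**
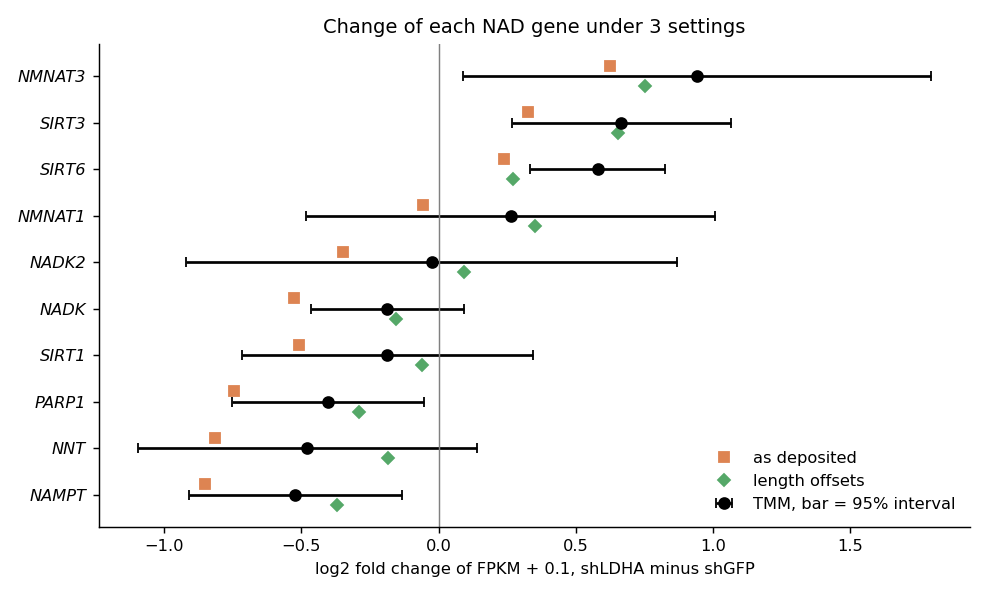
Log2 fold change of FPKM + 0.1 (shLDHA minus shGFP) of the 10 NAD genes after TMM scaling (black, bars are 95% intervals of limma), as deposited (orange squares) and after length offsets (green diamonds). As deposited values lie lower for every gene, and length offsets move NNT, at -0.18, and SIRT6, at 0.27, toward 0.

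After TMM scaling 2 of the 10 genes rose and 0 fell (limma, adjusted p under 0.05), against 18.1% and 12.9% of all tested genes. At an unadjusted p under 0.05 there were 5 (NAMPT, NMNAT3, SIRT3, SIRT6 and PARP1), against 46.7% of all tested genes. As deposited 0 were higher and 3 lower (NAMPT, NNT and PARP1), against 6.8% and 23.4%. With upper quartile scaling 1 was higher (SIRT6) and 2 lower (NAMPT and PARP1), against 14.3% and 18.5%, and with an equal total per library (TPM scaling) 0 were higher and 4 lower, NADK among them, against 5.33% and 34.6%. After length offsets 1 was higher (SIRT3) and 0 lower, against 15.6% and 13.0% of 11920 genes. The knockdown and control values did not overlap for 8 genes on either scale, 3 of them higher and 5 lower, where 36.4% of all tested genes were higher without overlap and 36.1% lower after TMM scaling, and 20.1% and 52.8% as deposited. The median log2 fold change of the 10 genes was -0.11, against -0.004 over all tested genes. These shares lay near the background. Over the 10 genes Spearman's rho between transcript length and log2 fold change was -0.87, with the shortest transcripts (SIRT6, NMNAT3 and SIRT3) at the top. Over all genes the median log2 fold change was 0.38 for transcripts up to 2000 bases, -0.02 from 2000 to 4000 bases and -0.31 above.

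Ratios of 2 genes within a library do not depend on the scaling. Of 7 such ratios, chosen after the values had been seen, 5 did not overlap between the groups. No share over all pairs of genes was computed, so nothing is read from this count. The ratios of SIRT6 and SIRT3 set a gene already seen higher over one already seen lower, so their separation followed from the choice. The SIRT6/PARP1 ratio of FPKM was 0.239 and 0.278 in shGFP and 0.564 and 0.460 in shLDHA, a log2 difference of 0.99. The SIRT6/SIRT1 ratio was 12.4 and 13.7 in shGFP and 20.9 and 24.1 in shLDHA, and the SIRT3/NNT ratio was 1.92 and 1.55 in shGFP and 3.83 and 3.87 in shLDHA. In each of these ratios the gap between the groups exceeded the difference within either pair. That too followed from the choice of genes, so nothing is read from it. The ratios are not free of transcript length: after length offsets the log2 fold changes of numerator and denominator were 0.27 and -0.29 for SIRT6/PARP1, 0.27 and -0.06 for SIRT6/SIRT1 and 0.65 and -0.18 for SIRT3/NNT. SIRT3/SIRT1 was higher without overlap (5.77 and 6.70 against 9.73 and 13.3), but its shLDHA libraries differed by more than the gap between the groups. NMNAT3/NMNAT1 was higher by a wide margin in shLDHA library 1 alone (0.762 and 0.917 against 2.07 and 0.924). The PARP1/NAMPT ratio was 22.8 and 23.0 in shGFP and 22.2 and 28.4 in shLDHA and overlapped, as did NADK/NADK2 (24.3 and 23.6 against 30.7 and 15.0). With 2 libraries against 2 a two-sided exact permutation test cannot go below 0.333, so none of the 7 can pass.

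**Figure D3:**
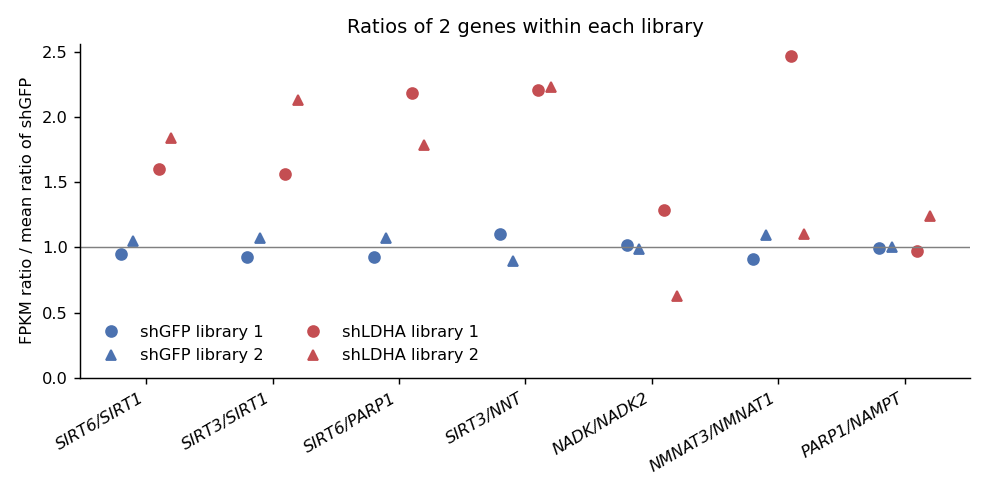
Ratio of the FPKM of 2 NAD genes in each library, divided by the mean ratio of the shGFP libraries (the grey line at 1); colours and symbols as library and group. The SIRT6/PARP1, SIRT6/SIRT1, SIRT3/SIRT1 and SIRT3/NNT ratios lie above both controls in both shLDHA libraries, and PARP1/NAMPT and NADK/NADK2 overlap.

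A wider list of 65 genes of NAD metabolism, the 10 included, placed them among their neighbours. Of these, 52 could be tested, 13 rose and 7 fell after TMM scaling and 32 did not pass, while as deposited 7 were higher and 16 lower. Over all tested genes 18.1% rose and 12.9% fell after TMM scaling, and 6.8% were higher and 23.4% lower as deposited, so nothing is read from the list's counts. The median log2 fold change of the list was -0.02 after TMM scaling and -0.34 as deposited, against -0.004 and -0.33 over all tested genes. In 12 genes the call was the same after TMM scaling, as deposited, with upper quartile scaling and with TPM scaling, and 11 of those, 5 higher and 6 lower, also kept it after length offsets. Of all tested genes 5.3% were higher and 12.9% lower in all 4 scalings, and 4.96% and 9.45% of 11920 genes with length offsets added. All 1709 genes lower after TMM scaling were lower in all 4 scalings, against 704 of the 2410 higher ones. Agreement over the scalings therefore adds nothing for a gene that fell. None of the 10 genes was among these 12. Every call of the list was lost without shGFP library 1 or 2, where 0 of all tested genes passed a limma adjusted p under 0.05 and 3473 and 3736 had an unadjusted p under 0.05.

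Among genes of the routes into NAD that bypass NAMPT, QPRT and NMRK1 rose, NAPRT fell, and NADSYN1, AFMID and KYNU did not pass. Over all tested genes 18.1% rose and 12.9% fell after TMM scaling, so nothing is read from the number of calls. QPRT, which makes nicotinate mononucleotide from quinolinate, stood at 167.9 and 164.0 FPKM in shGFP and at 243.6 and 238.0 FPKM in shLDHA (log2 fold change 0.88, standard error 0.09, limma adjusted p = 0.0090). NMRK1, the nicotinamide riboside kinase, stood at 1.32 and 1.38 FPKM in shGFP and at 2.65 and 3.55 FPKM in shLDHA (log2 fold change 1.45, limma adjusted p = 0.024). NAPRT, the entry enzyme for nicotinate, fell from 10.3 and 10.8 to 5.86 and 5.41 FPKM (log2 fold change -0.55, limma adjusted p = 0.029). For each of the 3 genes the groups did not overlap, where 36.4% of all tested genes were higher and 36.1% lower without overlap after TMM scaling. The calls of the 3 genes were the same in all 4 scalings and after length offsets. For NAPRT the agreement over the scalings adds nothing, since every gene lower after TMM scaling was lower in all 4. NMRK1 did not pass without the filter on low values (limma adjusted p = 0.055), nor NAPRT with a replicate block in the fit (limma adjusted p = 0.051). Upstream of QPRT, IDO2 and HAAO were listed at 0 in every library, and TDO2, IDO1 and KMO did not pass 0.55 FPKM. Other genes of the route from tryptophan were expressed: AFMID, the formamidase, stood at 31.2 and 29.0 FPKM in shGFP and at 28.8 and 17.9 FPKM in shLDHA, and KYNU, the kynureninase, stood at 1.89 and 1.28 FPKM in shGFP and at 1.53 and 1.2 FPKM in shLDHA. Neither passed the test (limma adjusted p = 0.80 and 0.73). ACMSD, which diverts a precursor from QPRT, did not pass 0.11 FPKM, and NMRK2, the paralog of NMRK1, was listed at 0. NADSYN1, the last enzyme of both the nicotinate and the quinolinate routes, stood at 33.2 and 34.4 FPKM in shGFP and at 35.5 and 28.9 FPKM in shLDHA (limma adjusted p = 0.070). NMNAT2, the cytosolic paralog of NMNAT1 and NMNAT3, stood at 10.3 and 12.1 FPKM in shGFP and at 5.57 and 6.24 FPKM in shLDHA (log2 fold change -0.57, limma adjusted p = 0.074, and 0.022 as deposited).

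Genes that supply or repair the nucleotides moved in both directions. PNP, a purine nucleoside phosphorylase that also splits nicotinamide riboside, fell from 71.4 and 69.0 to 39.4 and 35.3 FPKM (log2 fold change -0.57, limma adjusted p = 0.013). SLC29A1, a nucleoside transporter, fell from 190.9 and 170.1 to 105.8 and 71.8 FPKM (log2 fold change -0.70, limma adjusted p = 0.029). SLC29A1 did not pass without a filter on low values (limma adjusted p = 0.061) or without a variance trend (0.062). NAXE, the epimerase that repairs hydrated NADH, rose from 293.0 and 299.4 to 445.3 and 376.5 FPKM (log2 fold change 0.81, limma adjusted p = 0.0077), whereas NAXD, the dehydratase of the same repair, fell from 13.7 and 13.3 to 8.16 and 6.56 FPKM (log2 fold change -0.54, limma adjusted p = 0.025). The 2 partners of this repair thus moved in opposite directions. NNMT, which methylates nicotinamide and so removes it from salvage, rose from 806.3 and 828.4 to 1149 and 1131 FPKM (log2 fold change 0.82, limma adjusted p = 0.011), a level above that of PARP1 in every library. AOX1, listed with NNMT for nicotinamide disposal, was lower, with 5.27 and 4.73 FPKM in shGFP and 3.10 and 2.79 FPKM in shLDHA. Its log2 fold change was -0.41 (limma adjusted p = 0.091, and 0.036 as deposited). The call of NAXE was lost with TPM scaling (limma adjusted p = 0.093). After length offsets the log2 fold change of NAXE was 0.36 (limma adjusted p = 0.040). NOCT, listed with HDDC3 among the genes of the NADP pool, had a log2 fold change of -0.40 (limma adjusted p = 0.056). For NOCT it was -0.74 as deposited (limma adjusted p = 0.036) and -0.61 after length offsets (limma adjusted p = 0.023). HDDC3, a phosphatase of NADPH, had a log2 fold change of 0.80 (limma adjusted p = 0.040) that did not pass as deposited, at 0.46 (limma adjusted p = 0.18), nor without shLDHA library 1 (limma adjusted p = 0.082).

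Of the 7 sirtuin genes, 4 rose and 0 fell after TMM scaling, where 18.1% of all tested genes rose and 12.9% fell. SIRT2, the mainly cytosolic family member, stood at 31.7 and 30.2 FPKM in shGFP and at 52.5 and 52.9 FPKM in shLDHA (log2 fold change 1.11, standard error 0.10, limma adjusted p = 0.0086). SIRT7, a nucleolar member, stood at 20.6 and 19.8 FPKM in shGFP and at 28.4 and 31.7 FPKM in shLDHA (log2 fold change 0.91, limma adjusted p = 0.019). Both passed as deposited, so that 2 of the 7 were higher there, against 6.8% of all tested genes. After length offsets 3 passed, SIRT2, SIRT3 and SIRT7, against 15.6%. With 7 genes these counts describe the family and are no test of it. With TPM scaling SIRT2 passed and SIRT7 had a limma adjusted p of 0.056. SIRT4 and SIRT5, like SIRT3 found in mitochondria, had log2 fold changes of -0.01 (standard error 0.53) and 0.48 (standard error 0.26) and did not pass.

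Of 14 tested genes of ADP-ribosyl transferases, 1 rose and 3 fell after TMM scaling, and 0 were higher and 6 lower as deposited. Of all tested genes 18.1% rose and 12.9% fell after TMM scaling, and 6.8% were higher and 23.4% lower as deposited, so nothing about the family is read from these counts. PARP4 fell from 9.14 and 8.66 to 4.79 and 3.59 FPKM (log2 fold change -0.75, limma adjusted p = 0.022), PARP12 from 19.4 and 18.2 to 11.6 and 10.2 FPKM (log2 fold change -0.44, limma adjusted p = 0.030) and TNKS2, a tankyrase, from 3.35 and 3.32 to 1.82 and 1.49 FPKM (log2 fold change -0.65, limma adjusted p = 0.047). TNKS2 did not pass after length offsets (limma adjusted p = 0.16) or without shLDHA library 1 or 2 (limma adjusted p = 0.075 and 0.093). PARP10 had a log2 fold change of 0.68 (limma adjusted p = 0.013), with 36.7 and 38.7 FPKM in shGFP and 53.5 and 42.3 FPKM in shLDHA, and did not pass as deposited (limma adjusted p = 0.15). The 8 other tested members that did not pass ran from TNKS, at a log2 fold change of -0.80, to PARP16, at 0.55, and PARP11 and PARP15 did not pass 0.32 FPKM. PARP2, the closest relative of PARP1 in function, stood at 8.85 and 8.10 FPKM in shGFP and at 8.07 and 4.43 FPKM in shLDHA (log2 fold change -0.16, limma adjusted p = 0.65). Among the enzymes that remove ADP-ribose, MACROD1 rose from 21.2 and 20.6 to 53.8 and 46.4 FPKM (log2 fold change 1.60, standard error 0.07, limma adjusted p = 0.0076), in all 4 scalings and after length offsets. MACROD2 (0.56, limma adjusted p = 0.047) and ADPRS, on the row of its older symbol (0.41, limma adjusted p = 0.034), passed after TMM scaling but not as deposited (0.22 and 0.07 on the log2 scale), ADPRS had a log2 fold change of -0.08 with TPM scaling, and MACROD2 did not pass without shLDHA library 2 (limma adjusted p = 0.082). PARG, which trims poly(ADP-ribose), stood at 2.71 and 2.79 FPKM in shGFP and at 1.73 and 1.58 FPKM in shLDHA (log2 fold change -0.37, limma adjusted p = 0.16). Of the NAD glycohydrolases, CD38 was listed at 0 in every library, and BST1 and SARM1 reached 0.5 FPKM in 1 library each.

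**Figure D4:**
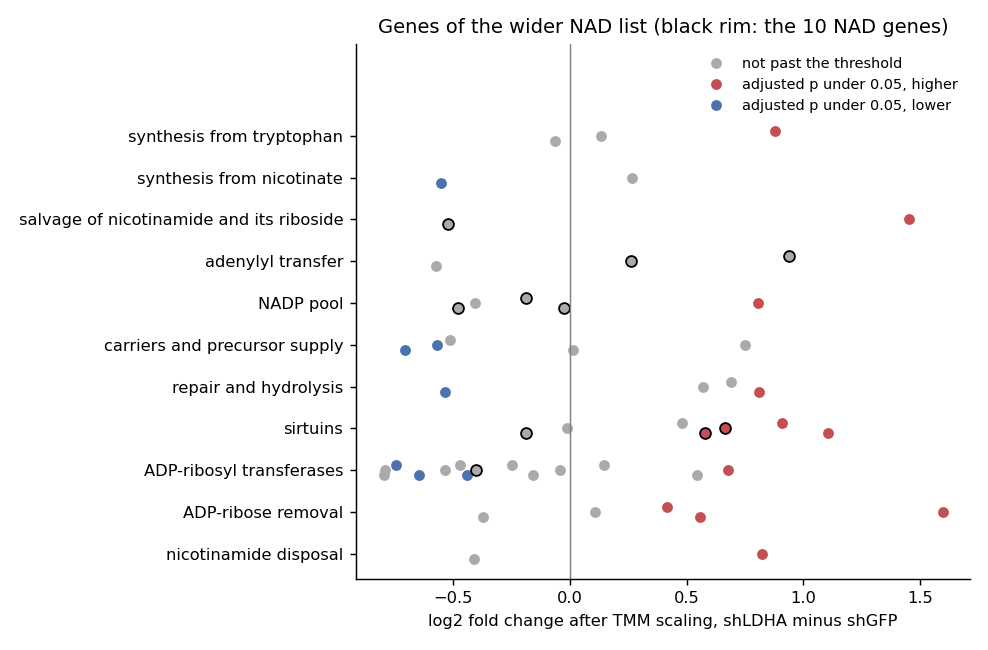
Log2 fold change after TMM scaling (shLDHA minus shGFP) of the 52 tested genes of the wider NAD list, 1 point per gene and 1 row per step, with red for genes that rose, blue for genes that fell and grey for the rest; black rims mark the 10 NAD genes. The sirtuins have 4 red points and no blue one, and the ADP-ribosyl transferases 3 blue and 1 red, beside 18.1% of all tested genes higher and 12.9% lower.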

How the data were processed

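RNA-Seq values of 4 B-CPAP libraries (2 shGFP, 2 shLDHA) were analysed, grouped by their titles. The study's methods name Trim Galore, STAR with hg19 and HTSeq, whereas HISAT2 and hg38 stand in the submitters' processing notes. The deposited table is labelled as counts, but it holds FPKM, rounded by the authors to 2 decimals. For their length scaling, tool and build are not given in the sources used here. Since FPKM, as deposited, do not allow a count test, limma (3.58.1, R 4.3.3) was run with a variance trend on log2(FPKM + 0.1), which makes changes of low genes look smaller, with Benjamini-Hochberg adjustment over 13291 rows. Before the fit, FPKM were scaled by an unweighted TMM (trims of 30% for M and 5% for A). The 224 rows without a gene name and 27 with a date as name were left out.

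Depth was estimated from 149 to 198 low values of single-exon genes per library, 83.5% to 86.9% of which fell at most 0.15 from a whole fragment, and fragment numbers are approximate and were not tested. They cover counting error only. Canonical transcript lengths and positions came by symbol from GENCODE v44 on GRCh37, promoters from RefSeq on GRCh38.p14. Length offsets removed, per library, a spline with 5 degrees of freedom on log2 length. The fit was tested on simulated data. Alternatives were other scalings, pseudocounts, filters, no variance trend, length offsets, a replicate block and leaving out each library. Genes named are LDHA, the 10, and those of the wider list that passed, are paralogs of the 10 or lay under 0.5 FPKM throughout. NADSYN1, PARG, AFMID, KYNU, TDO2, NOCT, BST1, SARM1 and AOX1 were added after their values were seen. A result on 1 thyroid marker is not reported here. Genes and lists were chosen with earlier results of these data known.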

Additional observations from a re-analysis of the deposited data

How the results depend on the processing

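The call of LDHA (log2 fold change -2.44, limma adjusted p = 0.0076) kept its side of the threshold except without shGFP library 1 or 2, at log2 fold changes of -2.47 and -2.46 (limma adjusted p = 0.11 and 0.095). Without 1 library in turn its log2 fold change ran from -2.51 to -2.37. Over all tested genes 2410 were higher and 1709 lower after TMM scaling (58.5% of calls higher), 904 and 3114 as deposited (22.5%), 1895 and 2458 with upper quartile scaling (43.5%), 708 and 4603 with TPM scaling (13.3%), and without a filter 1648 and 998. Without 1 library in turn they ran from 0 to 2906 higher and 0 to 1965 lower.

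Of the 10 genes, 2 were higher and 0 lower after TMM scaling, 0 and 3 as deposited, 1 and 2 with upper quartile scaling, 0 and 4 with TPM scaling, 1 and 0 without a filter, after length offsets and with length offsets in a replicate block, and 1 and 1 without a variance trend. Without 1 library in turn 0 to 2 were higher and 0 to 1 lower. The wider list had 13 higher and 7 lower after TMM scaling, 7 and 16 as deposited, 9 and 13 with upper quartile scaling, 5 and 21 with TPM scaling, 8 and 5 without a filter and 0 to 12 and 0 to 8 without 1 library in turn. The pseudocounts of 1 and 0.01 and a minimum of 1 FPKM changed no call of the 10 genes. The replicate numbers are shared only as numbers: the deviations of same-numbered libraries had a correlation of 0.12, and with the replicate block 2 of the 10 genes were higher and 0 lower, and 2209 and 1233 of all genes. The wider list then had 10 higher and 5 lower, and NAPRT, PARP12, TNKS2, HDDC3, ADPRS and MACROD2 did not pass (limma adjusted p = 0.051 to 0.087). Fits without 1 control library take their spread from the shLDHA pair alone, and fits without 1 shLDHA library from the shGFP pair alone. The median absolute log2 difference was 0.217 within the shLDHA pair and 0.125 within the shGFP pair. The causes of the changes between settings were not tested. With 2 libraries a group, intervals are wide for NMNAT1, NMNAT3 and NADK2.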
